A study of Mus musculus with 6 samples.

Results

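The sarcomeric myosin heavy chain genes were examined in RNA-Seq libraries of mouse lip. The 9 members were chosen by name as the genes of the motor protein of the thick filament, namely Myh1, Myh2, Myh3, Myh4, Myh6, Myh7, Myh7b, Myh8 and Myh13. All 9 of them were found among the 26814 gene symbols of the count matrix, and 4 of them were among the 15009 genes tested. Each member is reported as a level and as a share of the 9 members' summed count in its library.

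Top lip was dissected from adult female mice on a C57BL/6J background, and each mouse gave 1 library. One group of 3 was wild type (WT1 to WT3) and the other group of 3 was Gtf2ird1 KO (KO1 to KO3), mice of the targeted line Gtf2ird1 tm1Hrd, a germline allele that is not restricted to muscle. No treatment is given for either group, and lip was the tissue in all 6 libraries. Gtf2ird1 encodes a transcription factor of the TFII-I family, and the comparison asks which genes differ in the lip when it is targeted. The total count per library ranged from 20164081 to 29491767, so that 3 counts, the limit that a count of 0 allows, corresponded to 0.0986 to 0.154 CPM (counts per 1000000 counts of the library, scaled by TMM factors). Gtf2ird1 itself was higher in the libraries labelled KO. It had 78.2, 70.2 and 70.7 CPM in WT1 to WT3 and 166, 162 and 144 CPM in KO1 to KO3 (log2 fold change 1.11, SE 0.13, adjusted p = 0.0018, edgeR's quasi-likelihood test). Tail biopsies were collected to check the genotypes, and the level of the transcript does not by itself settle them. Directions are given below for the libraries labelled KO. A count per gene does not tell which part of Gtf2ird1 its reads came from.

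Each skeletal muscle fibre is built around 1 or a few myosin heavy chain isoforms, and the isoform sets how fast the fibre shortens. In adult rodents Myh7 encodes the slow type I chain, Myh2 the fast IIa chain, Myh1 the fast IIx chain and Myh4 the fast IIb chain, the fastest of the series. Myh3 and Myh8 encode the embryonic and perinatal chains, which are used by developing and regenerating fibres. Myh6 is the alpha chain of heart muscle, where Myh7 is the beta chain, Myh13 is the extraocular chain of the muscles of the eye and larynx, and Myh7b is an ancient relative of Myh7. The muscle of the lip belongs to the facial group and includes the fibres that move the whiskers.

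In GRCm38, 6 members form 1 cluster on chromosome 11 (chr11:67078300-67371586, 293.3 kb), all on the plus strand and in the order Myh3, Myh2, Myh1, Myh4, Myh8, Myh13. Myh6 (chr14:54941921-54966927) and Myh7 (chr14:54970684-54994626) lie next to each other on the minus strand of chromosome 14. Myh7b (chr2:155611212-155634307, plus strand) stands alone on chromosome 2.

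The 250 bases before the RefSeq start of the 4 tested members are shown because they hold a run of letters that these genes share, the longest found in all 4, printed in capitals. The positions are those of GRCm38.p6, plus strand. For Myh4 the RefSeq start lies upstream of the start in the GENCODE annotation. For Myh1 it lies downstream, and the window runs past the GENCODE start at 67200052.
Myh4, chr11:67237562-67237811: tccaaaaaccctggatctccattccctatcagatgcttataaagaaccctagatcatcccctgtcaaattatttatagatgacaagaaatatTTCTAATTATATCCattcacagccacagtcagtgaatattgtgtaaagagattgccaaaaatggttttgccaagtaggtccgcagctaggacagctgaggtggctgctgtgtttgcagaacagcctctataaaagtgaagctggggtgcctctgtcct
Myh1, chr11:67199852-67200101: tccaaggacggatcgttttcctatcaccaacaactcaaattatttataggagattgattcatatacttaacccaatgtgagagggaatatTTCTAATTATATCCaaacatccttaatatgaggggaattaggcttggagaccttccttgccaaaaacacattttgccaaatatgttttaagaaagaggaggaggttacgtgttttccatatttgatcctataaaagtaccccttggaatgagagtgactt
Myh2, chr11:67170777-67171026: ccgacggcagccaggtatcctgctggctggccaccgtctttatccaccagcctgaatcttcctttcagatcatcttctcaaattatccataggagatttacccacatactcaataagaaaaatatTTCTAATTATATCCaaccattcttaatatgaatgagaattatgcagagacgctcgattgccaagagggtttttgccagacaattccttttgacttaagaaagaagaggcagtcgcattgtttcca
Myh8, chr11:67276874-67277123: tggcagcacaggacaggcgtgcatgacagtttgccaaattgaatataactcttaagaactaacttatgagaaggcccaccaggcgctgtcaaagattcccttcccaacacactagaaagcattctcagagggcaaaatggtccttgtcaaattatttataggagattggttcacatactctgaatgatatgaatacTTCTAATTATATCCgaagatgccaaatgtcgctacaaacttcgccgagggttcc
The run of 14 bases, TTCTAATTATATCC, began 158 bases before the start in Myh4, 160 in Myh1, 125 in Myh2 and 54 in Myh8. Among 32851 promoters of this length in the RefSeq table, on either strand, 4 held it (0.0122%), and these were the promoters of the same 4 genes. Because the run was picked as common to these promoters, their own matches were fixed by the search. How often a run of this length would be met in other promoters was not computed. The windows of Myh3, Myh13, Myh6, Myh7 and Myh7b did not contain these letters. A MEF2 site, the binding motif of a muscle transcription factor family, was matched on either strand in Myh1, Myh4 and Myh8 and in 2.92% of all promoters. In each of these 3 genes a TATAAA match, present in 12.4% of all promoters, lay inside the MEF2 match. A CArG box, the motif of serum response factor, was matched in Myh4 alone of the 9 and in 1.47% of all promoters. The E-box CANNTG was matched in 66.2% of all promoters. These matches describe letters and not occupied sites.

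The members are close copies of each other, which bears on how reads were assigned. Over their coding sequences, aligned pair by pair, Myh6 and Myh7 shared 91.7% of bases, Myh1 and Myh2 91.1%, and Myh1 and Myh4 90.2%, while the most distant pair, Myh7b and Myh13, shared 69.2%. The reads were 100 bases long. Of all windows of 100 bases in the longest coding transcript, 14.7% in Myh1, 13.9% in Myh7, 11.4% in Myh6, 11.2% in Myh2, 6.61% in Myh8, 3.85% in Myh4, 3.45% in Myh13 and 1.15% in Myh3 occurred in another gene as well. Myh7b shared 0 windows. The search covered both strands, so antisense genes that overlap a member were counted as well. Of the 881 shared windows of Myh1, 321 were shared with Myhas, and of the 668 of Myh2, 141 with 9430073C21Rik. For Myh7, 146 of 852 were shared with Mhrt and 90 with Gm31251. By themselves, windows shared with such genes do not measure likeness between members. The partner with most windows in common was Myh2 for Myh1 (454 windows) and Myh1 for Myh4 (133 windows). The deposited counts keep uniquely assigned reads, so a read from a shared window may be lost or, where its mate does not settle it, placed elsewhere, and the counts of Myh1 and Myh2 carry this uncertainty more than that of Myh4.

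**Figure D1:**
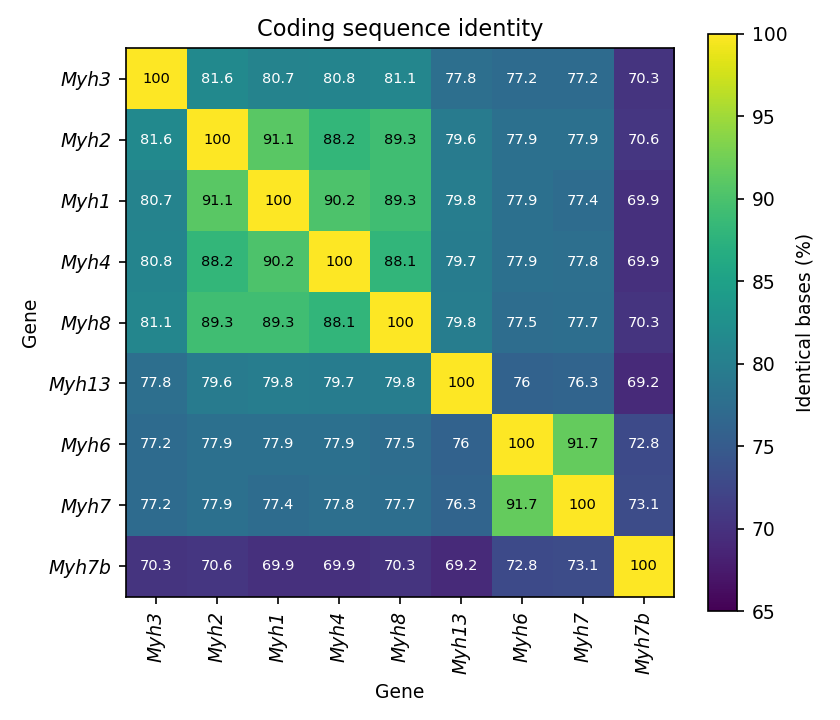
Identity between the coding sequences of the 9 myosin heavy chain genes, in percent of aligned bases, with genes of the chromosome 11 cluster first on both axes. The adult fast genes and Myh8 form a block of 88.1% to 91.1%, and Myh6 with Myh7 stands apart at 91.7%.

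The lip libraries held almost exclusively the fast IIb and IIx messages. Myh4 and Myh1 together made up 99.25% to 99.7% of the summed myosin heavy chain count in each of the 6 libraries. On the scale of CPM per kb of the longest coding transcript, the order of mean levels in WT was Myh4 (484), Myh1 (184), Myh2 (2.54), Myh8 (0.449), Myh7b (0.0842), Myh6 (0.0558), Myh13 (0.0364), Myh3 (0.0195) and Myh7 (0.00468). Across all 6 libraries Myh4 (222 to 574 CPM per kb) did not overlap with Myh1 (86.9 to 191), Myh1 did not overlap with Myh2 (0.946 to 3.25), and Myh2 did not overlap with Myh8 (0.192 to 0.588). Myh8 in turn stayed above Myh7b (0.0471 to 0.103). Below it the neighbours overlapped, with Myh6 at 0.0215 to 0.0904, Myh13 at 0.00754 to 0.0421, Myh3 at 0 to 0.0373 and Myh7 at 0 to 0.00821 CPM per kb, and their order is not resolved at this depth.

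**Figure D2:**
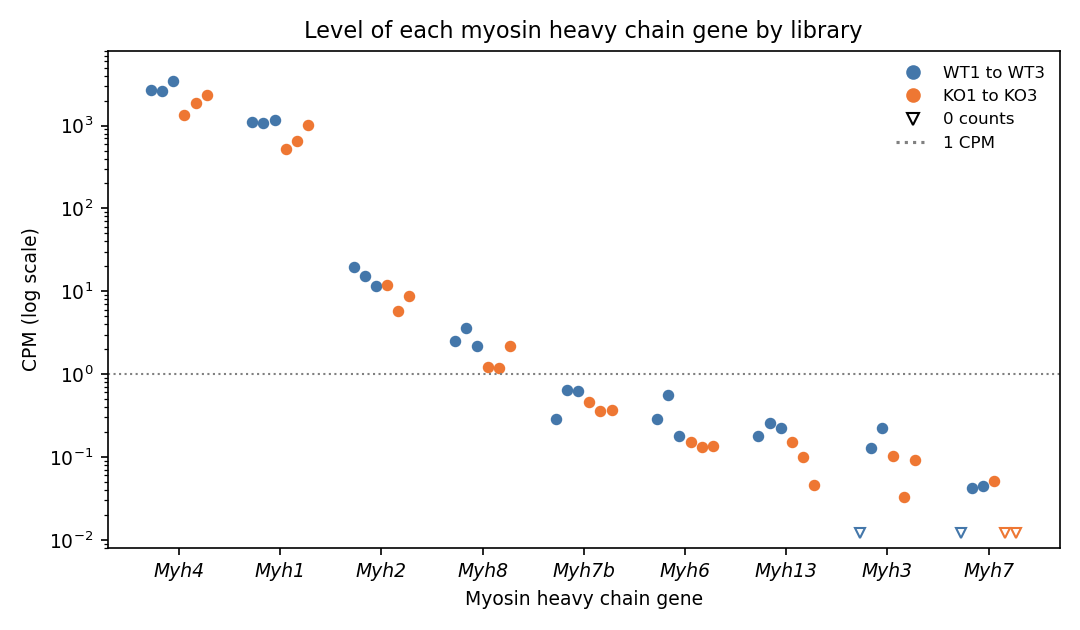
CPM of each of the 9 genes on a log axis, 1 point per library, with WT1 to WT3 left of KO1 to KO3 for each gene and open triangles for libraries with 0 counts, drawn at the foot of the axis. Myh4 and Myh1 lie between 528 and 3452 CPM, while 5 genes lie below the dotted line at 1 CPM in every library.

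Myh4, the IIb gene, had 2686, 2603 and 3452 CPM in WT1 to WT3 and 1338, 1852 and 2351 CPM in KO1 to KO3. The lowest WT library lay above the highest library labelled KO, and KO1 was the lowest of all. The mean was 2913 ± 468 CPM in WT and 1847 ± 506 CPM in KO (SD, n = 3 each), with a log2 fold change of -0.66 (SE 0.25, adjusted p = 0.129, edgeR's quasi-likelihood test). Most counts of the whole family came from this gene, 211974 in the WT libraries and 133898 in the libraries labelled KO.

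Myh1, the IIx gene, had 1109, 1085 and 1164 CPM in WT1 to WT3 and 528, 647 and 1019 CPM in KO1 to KO3. The WT libraries were close together, KO3 was just below them and the other two were far lower. The mean was 1119 ± 40.4 CPM in WT and 731 ± 256 CPM in KO (SD, n = 3 each), and the log2 fold change was -0.61 (SE 0.24, adjusted p = 0.141, edgeR's quasi-likelihood test). Myh1 shares 515 exon bases with the antisense gene Myhas on the opposite strand, and the setting for strand in counting is not given in the sources used here.

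Myh2, the IIa gene, had 19.8, 15.2 and 11.5 CPM in WT1 to WT3 and 12.02, 5.75 and 8.73 CPM in KO1 to KO3. The groups overlapped, since KO1 lay above WT3. The log2 fold change was -0.81 (SE 0.30, adjusted p = 0.123, edgeR's quasi-likelihood test) between means of 15.5 ± 4.16 and 8.84 ± 3.14 CPM (SD, n = 3 each). The order within the libraries labelled KO was not that of Myh1 and Myh4, as KO1 was highest for Myh2 and lowest for the other two. Myh2 shares 237 exon bases with 9430073C21Rik on the opposite strand, which had 3 to 15 counts per library.

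Myh8, the perinatal gene, had 2.504, 3.61 and 2.16 CPM in WT1 to WT3 and 1.23, 1.18 and 2.19 CPM in KO1 to KO3, on counts of 24 to 85. The groups overlapped at WT3 and KO3. The mean was 2.76 ± 0.760 CPM in WT and 1.54 ± 0.571 CPM in KO (SD, n = 3 each), with a log2 fold change of -0.85 (SE 0.33, adjusted p = 0.133, edgeR's quasi-likelihood test).

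Of the 4 tested members, 0 passed an adjusted p of 0.05, against 2.09% of all tested genes that passed it as lower in KO. At an unadjusted p under 0.05, 4 of 4 were lower, against 16.0% of all tested genes. For 2 of the 4, Myh1 and Myh4, every library labelled KO lay below every WT library, as it did for 18.1% of all tested genes. edgeR's exact test called 1 member, Myh2 (adjusted p = 0.0485), and 7.15% of all tested genes as lower, whereas DESeq2's Wald test, which called 5.31% of its tested genes as lower, and limma-voom called 0 members. Without KO3, 3 members passed edgeR's quasi-likelihood test, Myh1 (log2 fold change -0.92, adjusted p = 0.00527), Myh4 (-0.86, adjusted p = 0.0275) and Myh8 (-1.19, adjusted p = 0.0159), in a fit that called 16.2% of all genes as lower.

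The other 5 members did not reach 1 CPM in 3 libraries and were not tested. Embryonic Myh3 had 0, 3 and 5 counts in WT1 to WT3 and 2, 1 and 2 counts in KO1 to KO3. Slow Myh7 had 0, 1 and 1 counts in WT and 1, 0 and 0 counts in KO, below the limit of 3 counts in every library. The alpha cardiac gene Myh6 had 8, 13 and 4 counts in WT and 3, 4 and 3 in KO.

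Extraocular Myh13 had 5, 6 and 5 counts in WT and 3, 3 and 1 in KO. For Myh6 and Myh13 the CPM of the groups did not overlap, but the libraries labelled KO held 1 to 4 counts. Myh7b had 8, 15 and 14 counts in WT and 9, 11 and 8 in KO, which overlapped. Myh7 shares 484 exon bases with Mhrt and 523 with Gm31251 on the opposite strand, Myh6 shares 114 with Gm49130, and Myh7b shares 37 with Trpc4ap.

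Introns of 3 of these weakly detected genes hold microRNAs of 1 well-known muscle group, and their mature sequences are shown because Myh6, Myh7 and Myh7b are their host genes. They are from RefSeq, GRCm38.p6, with the seed (bases 2 to 8) in capitals.
miR-208a-3p, in Myh6: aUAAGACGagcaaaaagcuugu
miR-208b-3p, in Myh7: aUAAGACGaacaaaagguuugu
miR-499-5p, in Myh7b: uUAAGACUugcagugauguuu
miR-208a-3p and miR-208b-3p share the seed UAAGACG, and miR-499-5p has UAAGACU. The libraries were made from mRNA, so the microRNAs themselves were not measured.

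The shares of the isoforms in the myosin heavy chain pool overlapped between the groups. The share of Myh4 in the summed count was 70.3%, 70.2% and 74.5% in WT1 to WT3 and 71.2%, 73.9% and 69.5% in KO1 to KO3. The means were 71.7 ± 2.47% and 71.5 ± 2.21% (SD, n = 3 each), a difference of -0.167 percentage points (exact permutation test, two-sided, p = 1). The share of Myh1 was 29.1%, 29.3% and 25.1% in WT and 28.1%, 25.8% and 30.1% in KO, with means of 27.8 ± 2.32% and 28.0 ± 2.17% (SD, n = 3 each) and a difference of 0.193 points (exact permutation test, p = 1). WT3 and KO2 had the highest share of Myh4 in their groups and the lowest share of Myh1.

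The share of Myh2 was 0.518%, 0.409% and 0.248% in WT and 0.639%, 0.230% and 0.258% in KO. KO1 was highest of all 6, with a 95% Wilson interval of 0.563% to 0.726%, and KO2 lowest, with an interval of 0.198% to 0.266%. The share of Myh8 was 0.0656%, 0.0974% and 0.0466% in WT and 0.0653%, 0.0472% and 0.0649% in KO. The differences of means were -0.0159 points for Myh2 (exact permutation test, p = 0.9) and -0.0107 points for Myh8 (p = 0.6). These intervals cover counting error only, and for Myh2 the libraries of 1 group differed by more than that.

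The 5 weakest genes together held 14 to 38 counts per library, or 0.0189% to 0.0490% of the pool. Their mean shares in WT and KO were 0.0128% and 0.0166% for Myh7b, 0.00880% and 0.00582% for Myh6, 0.00550% and 0.00448% for Myh13, 0.00277% and 0.00315% for Myh3, and 0.000706% and 0.000907% for Myh7. The limit that 3 counts allow was 0.00285% of the pool in WT1 and 0.00816% in KO1, the smallest and largest. In all 9 shares the groups overlapped, the lowest p was 0.5 and the adjusted p over the 9 was 1 (exact permutation test, for which 3 against 3 cannot go below 0.1).

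**Figure D3:**
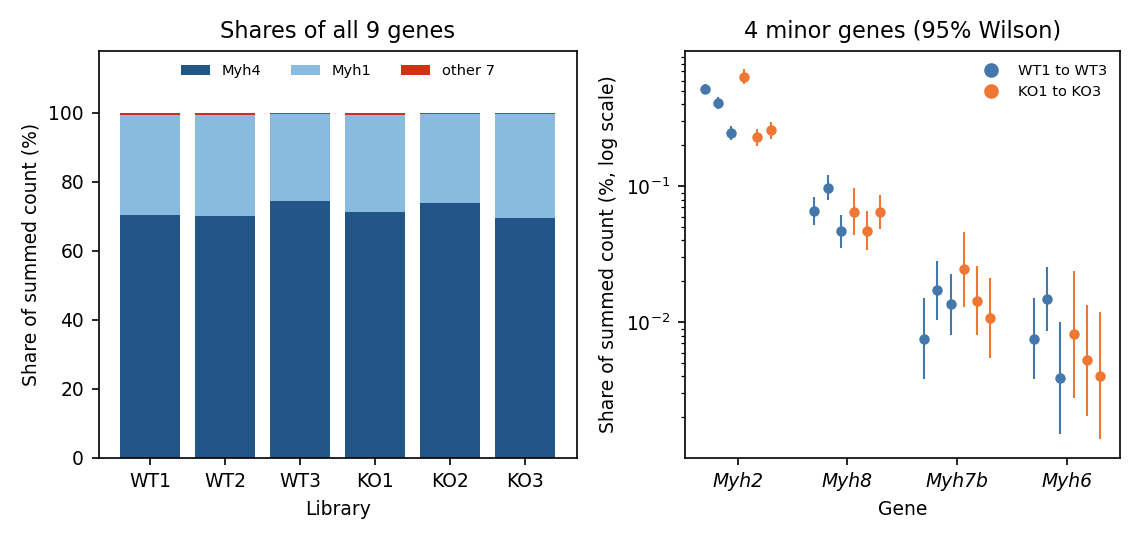
Shares of the summed count of the 9 genes per library, as stacked bars for Myh4, Myh1 and the other 7 together (left) and, on a log axis with 95% Wilson intervals, for 4 minor genes in WT1 to WT3 and KO1 to KO3 (right). Myh4 makes up 69.5% to 74.5% of every bar, and the points of both groups overlap for all 4 minor genes.

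Ratios within a library gave the same picture. The ratio of Myh1 to Myh4 counts was 0.413, 0.417 and 0.337 in WT1 to WT3 and 0.395, 0.349 and 0.434 in KO1 to KO3, a difference of mean log2 ratio of 0.01 (exact permutation test, p = 1). By exact permutation tests, the differences were -0.15 for Myh2 to Myh4 (p = 0.9), -0.17 for Myh2 to Myh1 (p = 0.8) and -0.18 for the developmental Myh3 and Myh8 to the adult fast sum of Myh1, Myh2 and Myh4 (p = 0.7). All 4 overlapped between groups and had an adjusted p of 1. The ratio of slow Myh7 to the adult fast sum has no logarithm in the 3 libraries with 0 counts. The limit of 3 counts corresponded to 2.85e-05 of the fast sum in WT1 and to 8.17e-05 in KO1, and the observed counts lay below it in all 6 libraries.

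The total of the pool was lower in the libraries labelled KO. The 9 genes summed to 3818, 3709 and 4630.5 CPM in WT1 to WT3 and to 1881, 2507 and 3381 CPM in KO1 to KO3. The groups did not overlap, and KO3 was nearest to WT. The means were 4052 ± 504 and 2589.6 ± 754 CPM (SD, n = 3 each), a log2 ratio of -0.65 with p = 0.1 in the two-sided exact permutation test, the smallest p that 3 against 3 allows. CPM is relative to the whole library. In bulk tissue, fewer muscle fibres, less RNA per fibre and more RNA from other cells cannot be told apart. Beside this, the summed level of 6 keratinocyte markers was 26769 to 30232 CPM in WT and 38883 to 53034 CPM in KO. Of these, 0 were called by edgeR's quasi-likelihood test, and 2 were called as higher by its exact test and by DESeq2's Wald test. Over all tested genes, 1165 of 15009 were called as higher by the exact test and 1511 of 16927 by DESeq2's. The log2 fold changes were 1.18 for Krt1, 0.64 for Krt10 and 0.46 for Dsp. For Krt14, Trp63 and Krt5 they were 0.15, 0.10 and -0.04. The summed level of 6 fibroblast markers was 6355 to 8325 CPM in WT and 2730.4 to 6660.1 CPM in KO, again with 0 of 6 called. By log2 fold change, Col1a1, Col1a2 and Col3a1 had -0.85, -0.80 and -0.75, and Dcn, Lum and Pdgfra -0.28, -0.24 and -0.23. The part of keratinocytes or fibroblasts in the lower myosin level was not tested.

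Taken as a geometric mean, a list of pan-muscle genes was lower by a larger factor than the summed myosin heavy chains. Gene by gene the log2 fold changes overlapped, at -1.29 to -0.53 in that list and -0.85 to -0.61 in the 4 tested members. The geometric mean of 18 pan-muscle genes, among them Acta1 (skeletal actin), Ttn (titin), Ckm (muscle creatine kinase) and Des (desmin), was 350 (WT1), 284 (WT2) and 314 CPM (WT3) against 120.3 (KO1), 143 (KO2) and 216 CPM (KO3). The groups did not overlap (log2 ratio -1.02, exact permutation test, p = 0.1). Divided by this level, the summed myosin heavy chains were higher in each library labelled KO, at log2 values of 3.45, 3.71 and 3.88 in WT and 3.97, 4.13 and 3.97 in KO, a difference of 0.34 or 1.27-fold (exact permutation test, p = 0.1, adjusted p = 0.25 over 5 values).

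Myh1 relative to the pan-muscle genes was 1.66, 1.93 and 1.89 in WT and 2.13, 2.18 and 2.24 in KO on the log2 scale, without overlap and with a difference of 0.35 (exact permutation test, p = 0.1, adjusted p = 0.25). Myh4 overlapped between groups, with 2.94, 3.20 and 3.46 in WT and 3.48, 3.69 and 3.44 in KO and a difference of 0.34 (exact permutation test, p = 0.2, adjusted p = 0.333). For Myh2 and Myh8 the differences were 0.19 and 0.15 (exact permutation test, both p = 0.8), and both overlapped. With the summed CPM of the 18 genes as the reference in place of their geometric mean, the differences were 0.44 for the sum (exact permutation test, p = 0.1), 0.45 for Myh1 (p = 0.2) and 0.44 for Myh4 (p = 0.1).

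**Figure D4:**
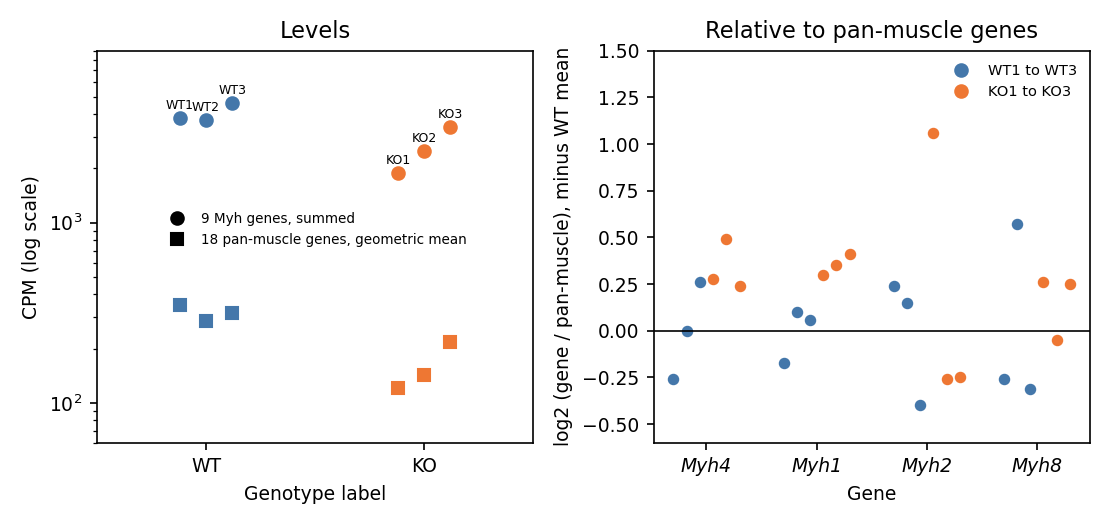
Left, summed CPM of the 9 myosin heavy chain genes (circles) and geometric mean CPM of 18 pan-muscle genes (squares) per library on a log axis. Right, log2 of 4 genes over the pan-muscle level, minus the WT mean, 1 point per library. The libraries labelled KO are lower for both quantities on the left, and for Myh1 on the right all 3 lie above WT.

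The non-muscle and smooth muscle myosin heavy chains, which are made by most cell types or by vessel walls, had means close to each other in the groups. Myh9 had 487 ± 52.6 CPM in WT and 563 ± 84.9 CPM in KO (SD, n = 3 each), and Myh14 had 229 ± 24.7 and 203 ± 40.5 CPM. The log2 fold changes were 0.21 for Myh9, -0.17 for Myh14, -0.09 for Myh10 and -0.05 for the smooth muscle gene Myh11, with 0 of 4 called in edgeR's quasi-likelihood test and a lowest adjusted p of 0.422. Their median was -0.07, against -0.74 for the 4 tested sarcomeric members and -0.02 for all tested genes. Myh15, another sarcomeric relative, had 0 to 2 counts per library.

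Partners of the fast isoforms in the sarcomere and the sarcoplasmic reticulum lay lower in the libraries labelled KO. Of 11 fast fibre partners 10 were tested and 3 fell, against 2.09% of all tested genes. The median log2 fold change over the 10 was -1.0. edgeR's exact test called 9 of the 10 as lower, against 7.15% of all tested genes. DESeq2's Wald test, run on all 11, called 8, against 5.31% of its tested genes. The 3 were Pvalb, the calcium buffer parvalbumin (log2 fold change -1.17, SE 0.25, adjusted p = 0.0343), Tnnt3, fast troponin T (-1.01, SE 0.22, adjusted p = 0.0397), and Tnni2, fast troponin I (-1.05, SE 0.25, adjusted p = 0.0484), all by edgeR's quasi-likelihood test. Atp2a1, the fast calcium pump SERCA1, had 3073 ± 871 CPM in WT and 1318 ± 676 CPM in KO (SD, n = 3 each), the highest CPM of the list when not scaled by length, and did not pass (adjusted p = 0.0892). It shares 763 exon bases with Rabep2 on the opposite strand. Fast troponin C, Tnnc2, had 0 to 5 counts and shares 592 exon bases with Ube2c on the opposite strand.

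Of 11 slow fibre partners 8 were tested, 2 fell and 0 rose, against 2.09% and 4.38% of all tested genes. The median of the 8 was -0.45. The 2 were Csrp3, a Z-disc protein (log2 fold change -1.21, SE 0.20, adjusted p = 0.0125), and Myoz2, the slow-fibre calsarcin (-1.43, SE 0.28, adjusted p = 0.0246), by edgeR's quasi-likelihood test. Atp2a2, the SERCA2 pump that non-muscle cells use as well, had the highest CPM when not scaled by length, 373 ± 30.1 CPM in WT and 454 ± 15.5 CPM in KO (SD, n = 3 each, log2 fold change 0.28, adjusted p = 0.189). The slow light chains Myl2 and Myl3 were as scarce as Myh7, with 0 to 1 and 0 to 3 counts per library.

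Slow and fast partners were set side by side on a per-length scale. Slow Tnni1 was 0.1097% to 0.203% of the Tnni1 and Tnni2 pair in WT and 0.217% to 0.434% in KO, without overlap. Slow Tnnt1 was 0.607% to 0.849% of the Tnnt1 and Tnnt3 pair in WT and 0.473% to 0.663% in KO, with overlap. Atp2a2 was 7.30% to 10.8% of its pair with Atp2a1 in WT and 14.3% to 33.1% in KO, without overlap. Casq2 was 5.59% to 7.84% of its pair with Casq1, the calsequestrins that store calcium, in WT and 6.82% to 15.8% in KO, with overlap. Myoz2 was 7.57% to 14.6% of its pair with Myoz1 in WT and 7.63% to 9.12% in KO, with overlap. Mybpc1, named for slow fibres, was the larger part of its pair with Mybpc2, the myosin binding protein C of fast fibres. It made up 90.6% to 95.6% in WT and 90.1% to 93.8% in KO, with overlap. Over the 6 libraries, Myl2 was 0% to 0.00860% of its pair with Mylpf, and Myl3 0% to 0.0273% of its pair with Myl1. The troponin C pair gives no usable share, since Tnnc1 had 0 to 8 counts and Tnnc2 0 to 5 counts per library.

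**Figure D5:**
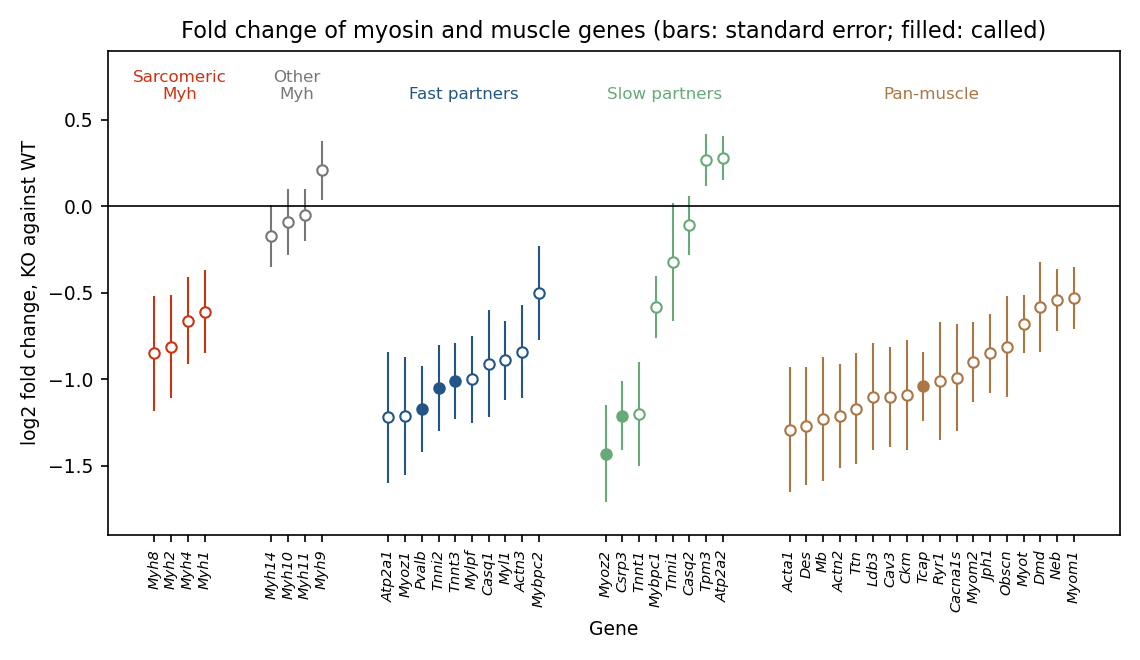
Log2 fold change of the libraries labelled KO against WT for the tested sarcomeric and other myosin heavy chains, fast and slow fibre partners and pan-muscle genes, with bars for the standard error and filled points for genes with an adjusted p under 0.05. The 4 sarcomeric members lie between -0.85 and -0.61, and the pan-muscle genes between -1.29 and -0.53.

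Of the 18 pan-muscle genes 1 fell, Tcap, the titin cap protein telethonin (log2 fold change -1.04, SE 0.20, adjusted p = 0.0248, edgeR's quasi-likelihood test). In that test 2.09% of all tested genes passed as lower. All 18 pan-muscle genes had negative fold changes, and the list's median was -1.02. edgeR's exact test called 15 of the 18 as lower, DESeq2's Wald test 14 and limma-voom 4. Over all tested genes, these called 7.15%, 5.31% and 332 of 15009 as lower. Ttn, the giant spring protein titin, with the highest CPM of them when not scaled by length, had 3785 ± 726 CPM in WT and 1685 ± 639 CPM in KO (SD, n = 3 each), and did not pass (log2 fold change -1.17, adjusted p = 0.0685). Per kb it had 35.4 CPM in WT, against 1901 CPM per kb for Acta1.

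Genes of developing and regenerating fibres were examined beside Myh3 and Myh8. Of 11 listed 8 were tested, 2 fell and 0 rose, against 2.09% and 4.38% of all tested genes. The median of the 8 was -1.04. Actc1, the cardiac actin that immature skeletal fibres also make, had a log2 fold change of -1.74 (SE 0.32, adjusted p = 0.0203), and Ncam1, a cell adhesion molecule of regenerating fibres and of nerve, had -0.96 (SE 0.23, adjusted p = 0.0482), by edgeR's quasi-likelihood test. Myog had 3.80 ± 1.09 CPM in WT and 1.76 ± 0.687 CPM in KO (SD, n = 3 each), and Myf6, the myogenic factor of mature fibres, had 16.3 ± 3.84 and 6.79 ± 3.59 CPM. Neither passed (adjusted p = 0.0829 and 0.0727).

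Among 8 genes of myosin folding and turnover, all tested, 3 fell and 1 rose, with a median of -0.90. Of all tested genes, 2.09% passed as lower and 4.38% as higher in KO. Hsp90aa1, the chaperone HSP90 alpha, which folds the myosin head together with Unc45b and serves many other clients in all cells, rose from 49.9, 71.5 and 79.0 CPM in WT1 to WT3 to 288, 366 and 130.1 CPM in KO1 to KO3 (log2 fold change 1.97, SE 0.36, adjusted p = 0.0192, edgeR's quasi-likelihood test). Unc45b itself, the muscle co-chaperone, had 31.9 ± 2.26 CPM in WT and 18.1 ± 7.81 CPM in KO (SD, n = 3 each) and did not pass (log2 fold change -0.82, adjusted p = 0.107). The 3 that fell were Trim55 (-0.98, adjusted p = 0.0277) and Trim54 (-1.17, adjusted p = 0.0433), ubiquitin ligases of the sarcomere, and Mybph, myosin binding protein H (-1.42, adjusted p = 0.0315).

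Regulators of fibre type were tested in full. Of 20 genes 1 fell and 0 rose, against 2.09% and 4.38% of all tested genes. The median of the 20 was -0.48, with 18 negative and 2 positive. The 1 was Vgll2, a cofactor of TEAD factors in skeletal muscle, which had 4.71 ± 0.629 CPM in WT and 1.54 ± 0.725 CPM in KO (SD, n = 3 each, log2 fold change -1.62, SE 0.32, adjusted p = 0.0266). Tbx15, a factor of fast glycolytic fibres, had a log2 fold change of -1.15 (adjusted p = 0.0703). Prox1 and Sox6, which act on slow fibre genes, had -0.12 (adjusted p = 0.696) and -0.32 (adjusted p = 0.260).

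The calls in these lists depended on the test and on which libraries were used. As lower, edgeR's exact test called 5 developmental genes, 6 folding and turnover genes, 6 regulators and 3 slow partners. DESeq2's Wald test called 4, 4, 4 and 3. Over all their tested genes, these tests called 7.15% and 5.31% as lower. The lists named here and the marker lists held 15 called genes, of which 13 lost the call in 5 of the 6 fits that each left out 1 library and 2, Csrp3 and Actc1, in 4 of them. All 15 kept it without KO3. In that fit 9 of 10 fast partners and 16 of 18 pan-muscle genes passed, against 16.2% of all genes called as lower.

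Markers of other cell types were examined beside the members. Over all tested genes, edgeR's quasi-likelihood test called 2.09% as lower and 4.38% as higher, and its exact test 7.15% as lower. Of 6 cardiac markers 2 were tested and 0 called. Tnnt2, also made by immature skeletal fibres, had 3.29 to 5.53 CPM over the 6 libraries and Tnni3 1.01 to 2.35 CPM, while Nppa, Myl7, Mybpc3 and Ryr2 stayed under 1 CPM in each. Of 6 smooth muscle markers 5 were tested and 1 fell, Tagln (log2 fold change -0.59, SE 0.14, adjusted p = 0.0437, edgeR's quasi-likelihood test). Of 5 satellite cell markers 3 were tested and 0 called by edgeR's quasi-likelihood test, against 2 called as lower by its exact test. Pax7, Cdh15 and Megf10 had log2 fold changes of -1.40, -1.18 and -0.03. The median was -1.18, and the 5 markers summed to 7.06 to 10.6 CPM in WT and 2.97 to 7.09 CPM in KO. Of 6 adipocyte markers 1 fell, Fabp4 (-0.65, SE 0.13, adjusted p = 0.0303), with a median of -0.75. The part of these cells in the myosin levels was not tested.

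Within the cluster on chromosome 11, values of the non-coding and flanking genes were added after the members' values had been seen. Gm12300, which RefSeq lists as a synonym of Myhas, the antisense gene at Myh1, had 8.35, 6.89 and 7.601 CPM in WT and 2.97, 2.96 and 5.30 CPM in KO (log2 fold change -1.03, SE 0.26, adjusted p = 0.0589, edgeR's quasi-likelihood test). The non-coding gene 2310065F04Rik had 11.7, 9.48 and 10.4 CPM in WT and 3.89, 5.98 and 7.59 CPM in KO (-0.85, SE 0.25, adjusted p = 0.0784). Neither overlapped between groups and neither passed the threshold. The protein-coding neighbours outside the cluster had log2 fold changes of -0.04 for Sco1 (adjusted p = 0.90), 0.02 for Adprm (adjusted p = 0.952) and -0.39 for Tmem220 (adjusted p = 0.262).

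The genes whose pattern over the 6 libraries was most like that of the summed myosin heavy chain level were found among 14958 tested genes by Pearson's r of log2 CPM. They were Cpxm1 (0.9987), Twist1 (0.9968), Sfrp2 (0.9958), Col8a2 (0.9951) and Tspan13 (0.9951). For Myh4 they were Col8a2 (0.999), Dusp2 (0.9986) and Cdo1 (0.9973), and for Myh8 they were Gstt1 (0.9974), Man1a (0.993) and Colec11 (0.9927). These values describe 6 libraries, which share 1 split by genotype label, and with so many genes compared high values are found by selection alone.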

How the data were processed

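The libraries of lip mRNA were 3 labelled WT and 3 labelled Gtf2ird1 KO, each from 1 mouse. The authors used TopHat2 2.0.8 and Bowtie2 2.1.0 for mapping to GRCm38, per the submitters' processing notes, and deposited whole-number counts of uniquely assigned reads per gene from HTSeq. Whether counting used strand, and in which mode, is not given in the sources used here. All 6 columns were used, and 0 entries named no gene.

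A gene entered the test with 1 CPM or more in 3 libraries or more. The test was that of edgeR 4.0.16 (TMM factors, glmQLFit with legacy=FALSE, glmQLFTest) under R 4.3.3, with Benjamini-Hochberg adjustment over all tested genes and a threshold of 0.05. edgeR's exact test, DESeq2 1.42.0, limma-voom (limma 3.58.1), other scaling, other filters, a replicate block and fits without each library were alternatives. Shares, ratios and summed levels were compared by two-sided exact permutation tests over the libraries (scipy 1.17.1). CPM per kb used the longest protein-coding transcript of GENCODE vM21, and promoter and microRNA sequences are RefSeq's. On simulated data with 200 changed genes, the fit recovered 61 of 100 changed by a log2 fold of 1 and 98 of 100 changed by a log2 fold of 2, with 14 false among 173 calls. Intervals and limits cover counting error only.

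The members and lists were chosen with earlier results of these data known. All 9 members are named, and of the lists mainly genes with the highest level or the lowest p, the slow and fast pairs, and called genes. Myog, Myf6, Unc45b, Tbx15, Prox1, Sox6 and the cardiac markers were named for their roles after their values had been seen. Gtf2ird1 was planned as a check of the labels, which its level alone cannot settle. Of the planned ratios, that of Myh7 had no logarithm at 0 counts, so adjustment was over 4. The genes most like Myh7 were not sought at 0 to 1 counts. The shares per unique window of 100 bases, the non-coding and flanking genes and the counts of each list per left-out library were added after the data had been seen.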

Additional observations from a re-analysis of the deposited data

How the results depend on the processing

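Every alternative test, scaling and filter kept the sign of the 4 members' log2 fold changes, between -0.90 and -0.55, and left-out libraries kept it between -1.19 and -0.37. Genes called were 971 in edgeR's quasi-likelihood test, 2238 in edgeR's exact test, 2409 in DESeq2's Wald test and 226 (without KO2) to 4891 (without KO3) with a library left out. Of these, 314 were lower in the quasi-likelihood test, 1073 in the exact test and 898 in DESeq2's. Members called were 0, with 1 in the exact test and 0 to 3 with a library left out, the 3 without KO3. The cause was not tested. The summed level differed by -0.65 on the log2 scale, by -0.70 to -0.62 in other settings and by -0.89 (without KO3) to -0.46 (without KO1) with a library left out. The shares per unique window of 100 bases, chosen after seeing the data, kept the sign of all 9 differences (0.203 points for Myh1, -0.176 for Myh4).

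With a library left out, small differences turned sign. In percentage points of the pool, these ranged from -1.15 to 1.29 for Myh1, -1.35 to 1.26 for Myh4, -0.148 to 0.0572 for Myh2, -0.0224 to 0.00304 for Myh8, -0.000176 to 0.00666 for Myh7b, -0.00543 to 7.7e-05 for Myh6, -0.00285 to 0.000553 for Myh13, -0.000995 to 0.00143 for Myh3 and -0.000706 to 0.000655 for Myh7. On the log2 scale they ranged from -0.62 to 0.14 for Myh2 to Myh4, -0.09 to 0.10 for Myh1 to Myh4, -0.63 to 0.08 for Myh2 to Myh1, -0.40 to 0.08 for the developmental sum to the fast sum, and, over the pan-muscle genes, -0.25 to 0.41 for Myh2 and -0.01 to 0.44 for Myh8. The summed level over the pan-muscle genes stayed between 0.23 and 0.44.

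The labels do not say what the replicate numbers stand for. The deviations of same-numbered libraries correlated at -0.19, 0.28 and 0.298 over 15009 genes. With 3 libraries per group, these values cannot decide whether same-numbered libraries were processed together. A replicate block called 797 genes and 0 members, and the mean of the 3 numbered log2 ratios of the summed level was -0.68. Depth limits Myh3, Myh6, Myh7, Myh7b and Myh13, at 0 to 15 counts per library.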
